A study of Mus musculus with 10 samples.

Results

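The MYC, MAX and MXD network is a set of transcription factors of the basic helix-loop-helix leucine zipper class that pair with MAX or with one another. Its members were taken by symbol from the 10 tables of raw counts: Myc, Mycn, Mycl, Max, Mxd1, Mxd3, Mxd4, Mxi1, Mnt and Mga, which are 10 of the 50559 genes counted. Each of the 10 members had reads in every library, with a lowest count of 5, and each passed the filter on low counts.

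MYC, MYCN and MYCL bind E-box DNA together with MAX and are known to raise the transcription of genes for ribosome production, nucleotide synthesis and cell growth. The MXD proteins, MXI1 and MNT compete for MAX and recruit SIN3 corepressors with histone deacetylases to the same E-boxes, whereas MGA joins MAX to a Polycomb complex. In the young cerebellum Mycn is a known target of Hedgehog signaling in granule cell precursors, and Mxd3 is expressed in the same dividing cells.

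RNA from formalin-fixed, paraffin-embedded (FFPE) mouse tissue was sequenced in 3 groups. The 4 MYC/SMARCA4 tumors arose in the cerebella of immunodeficient CD1nu/nu hosts after transplantation of cultured granule cell precursors, and the mice with tumors 1 to 4 were 112, 96, 89 and 79 days old. The transplanted cells came from Math1-creERT2::Smarca4fl/fl pups on a C57Bl6/J background, in which tamoxifen (0.4 mg, given on postnatal day 3) had deleted Smarca4 in cells with an active Math1 promoter. A lentivirus then carried murine Myc behind the CMV promoter, followed by IRES-GFP, into these cells, and no selection of recombined or transduced cells preceded the transplantation. The 3 P7 cerebella were whole cerebella of Math1-creERT2::Smarca4fl/fl pups, also given 0.4 mg of tamoxifen at 3 days and taken at 7 days of age, so they carried the same floxed allele and treatment as the donors of the tumor cells, without the lentivirus. The 3 SHH MB were medulloblastomas of Math1-cre::Smofl/wt mice, a model driven by activated Smoothened in the Math1 lineage, for which the labels give 7 days of age and no treatment. The tumors were taken as tissue punches, which can include host cerebellum. Because the transgene is the murine gene, reads from it and from the endogenous locus were counted together as Myc.

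Total counts ranged from 5663491 to 9352109 per library. Levels are given as normalized CPM, which are counts scaled to library size with TMM factors, and a floor of 3 counts corresponded to between 0.307 and 0.744 normalized CPM, for counting error only. The tumors were compared with the P7 cerebella to ask how the network differed from tissue with the same floxed allele, and with SHH MB to ask how it differed from a Hedgehog-driven tumor, and SHH MB were compared with P7 cerebella as the remaining pair. These 3 comparisons share libraries and are not independent. Between the MYC/SMARCA4 tumors and P7 cerebella, age, host, the lentivirus, culture and transplantation, and the presence of tumor tissue changed together. The form of sampling, punch or whole cerebellum, also differed there. Between these tumors and SHH MB, genotype, the tamoxifen given to the donors, age, host, the lentivirus, culture and transplantation changed together. Genotype, treatment and the presence of tumor tissue changed between SHH MB and P7 cerebella. The parts of these factors cannot be told apart.

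Tumors 1 and 3 stood apart from the other tumors. The 21 genes of a proliferation list summed to 239.7 CPM in tumor 1 and to 3199, 3346 and 3555 CPM in tumors 2 to 4, beside 1365 to 1828 CPM in P7 cerebella and 3594 to 4298 CPM in SHH MB. Mki67, the gene for the Ki-67 antigen of dividing cells and the most abundant gene of that list, was at 45.6 CPM in tumor 1 and at 771, 939 and 713 CPM in tumors 2 to 4. Tumor 1 thus had the lowest proliferation signal of the 10 libraries. The 8 mature granule neuron markers summed to 5027, 1611, 186 and 916 CPM in tumors 1 to 4, with Cbln3, a cerebellin and the most abundant of them over the 10 libraries, at 1760, 462, 42.8 and 226 CPM. The 8 Purkinje cell markers summed to 12080, 2838, 379.5 and 1970.0 CPM, with Itpr1, an inositol trisphosphate receptor gene, most abundant, and the 8 markers of myelinating oligodendrocytes to 4175, 841, 118 and 465 CPM, with Mbp, the myelin basic protein gene, most abundant. Markers of mature cerebellum were therefore highest in tumor 1 and lowest in tumor 3. No gene of the 12 marker lists was at 0 counts in any library. Mitochondrial genes took 6.36% of the counts of tumor 1 and 2.94%, 2.89% and 2.29% of those of tumors 2 to 4, and the TMM factors were 0.619, 0.802, 1.28 and 0.881. For these reasons the values without tumor 1 are given beside those of all libraries, a choice listed from the start among the leave-one-out alternatives. In bulk tissue, fewer cells of a type and less RNA per cell cannot be told apart.

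**Figure D1:**
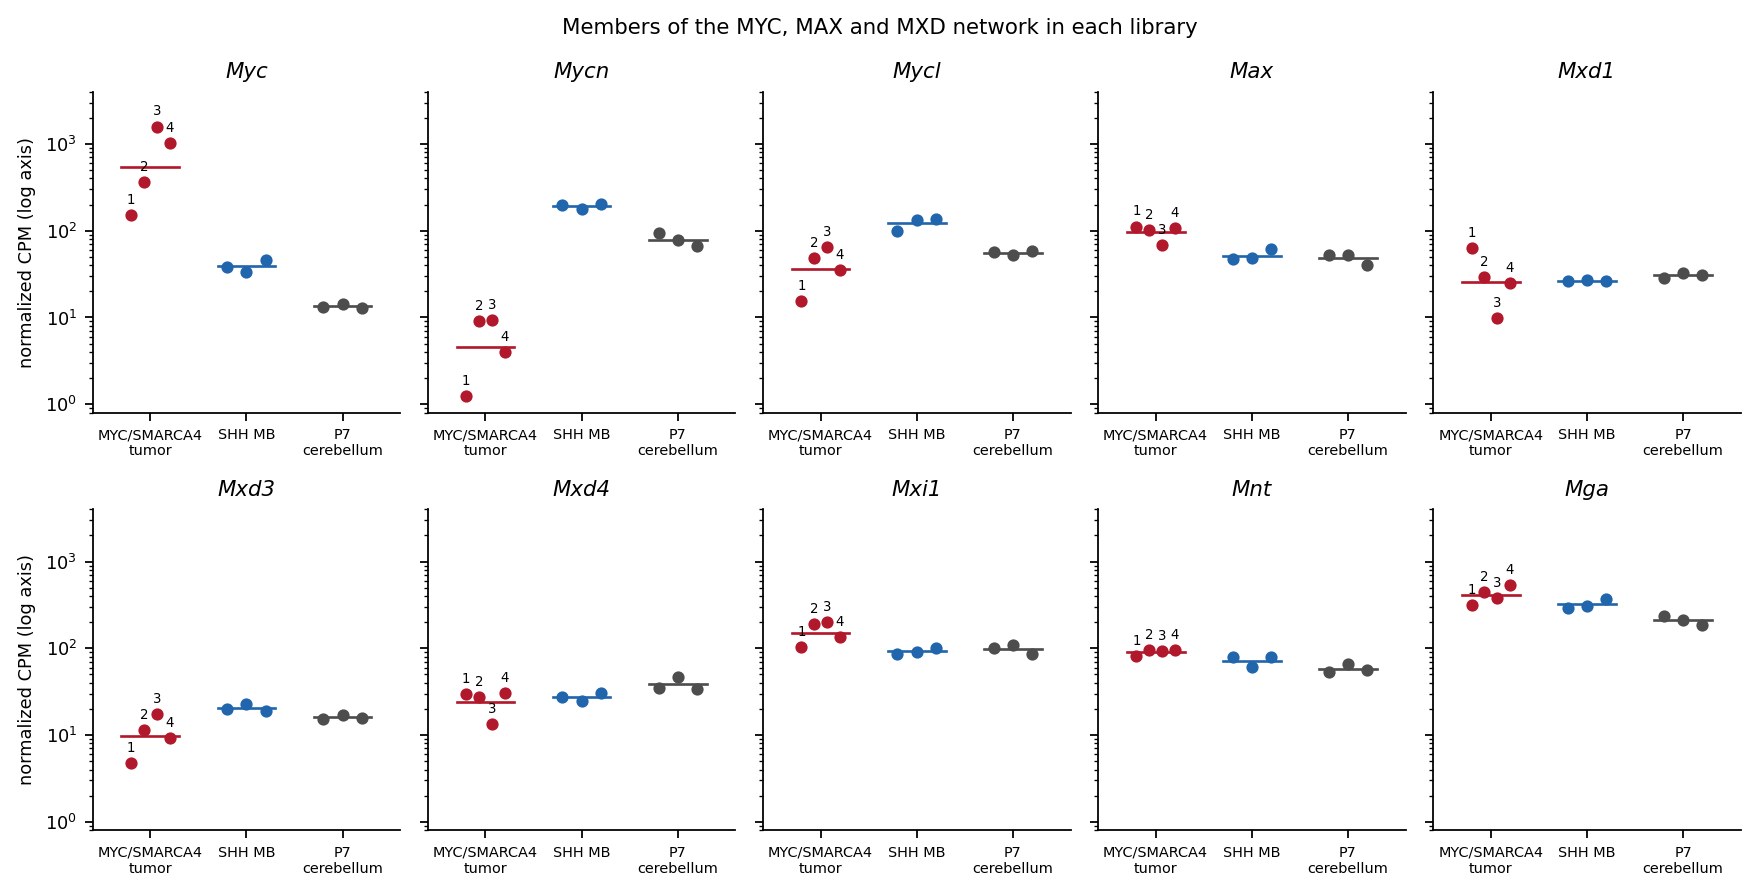
Normalized CPM on a log axis of the 10 members in each of the 10 libraries, with 1 panel per member, a point per library and a line at the mean of the log values of each group. Tumors are numbered, and Myc is higher and Mycn lower in each of the 4 tumors than in any of the other 6 libraries.

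In the MYC/SMARCA4 tumors compared with P7 cerebella, Myc and Max were higher and Mycn was lower. Of the 10 members, 2 passed an adjusted p of 0.05 as higher and 1 as lower, while 3.99% of the 29952 genes tested were called higher and 2.27% lower. At the thresholds of the study, a log2 fold change of at least 2.5 in either direction with an adjusted p of at most 0.01, Myc and Mycn were called, that is 2 members, beside 0.290% of all genes. All counts of members in this comparison include Myc, whose rise was set by the design, since the lentivirus supplied it. For 6 members the values of the groups did not overlap, which was so for 21.0% of all genes tested. Without tumor 1, 5 members were called higher (Myc, Max, Mxi1, Mnt and Mga) and 1 lower (Mycn), with 11.1% of the 29877 genes then tested called higher and 5.0% lower.

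In the same tumors compared with SHH MB, Myc was higher, and Mycn and Mycl were lower. These were 1 member called higher and 2 called lower, next to 2.43% and 2.26% of all genes tested. The thresholds of the study were passed by 2 members, Myc and Mycn, and by 0.601% of all genes. Here too the counts of members include Myc, whose rise was set by the design. The groups did not overlap for 7 members and for 16.1% of all genes. Without tumor 1, Myc, Max and Mxi1 were called higher and Mycn and Mycl lower, which is 3 and 2 members, beside 5.91% and 3.86% of all genes.

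No member passed the test between SHH MB and P7 cerebella, where edgeR called 0 members either higher or lower and, of all genes, 0.177% higher and 0.0467% lower. At an unadjusted p under 0.05 there were 3 members, Myc, Mycn and Mycl, and 2635 genes. DESeq2 and limma on the deposited log2 values also called 0 members, with 457 and 67 genes called. No member passed the thresholds of the study, which 0.010% of all genes passed. The tumors enter this test through the shared estimate of spread, and also through the filter on low counts and the scaling. Leaving tumor 1 out moved the median of all genes in this comparison from -0.0883 to -0.0655. It gave 2 members called higher, Mycn and Mycl, and 0 lower, with 2.30% and 0.867% of all genes. In a fit of only the 2 groups, 4 members were called higher (Myc, Mycn, Mycl and Mga) and 1 lower (Mxd4), next to 13.4% and 10.3% of 29018 genes. That fit also called 8 of 8 Purkinje cell and 8 of 8 myelinating oligodendrocyte markers lower, as given with the other cell types below. The 7 members whose values did not overlap between these groups were Myc, Mycn, Mycl, Mxd3 and Mga, higher in SHH MB, and Mxd1 and Mxd4, lower in SHH MB, and of all genes 36.8% did not overlap there.

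**Figure D2:**
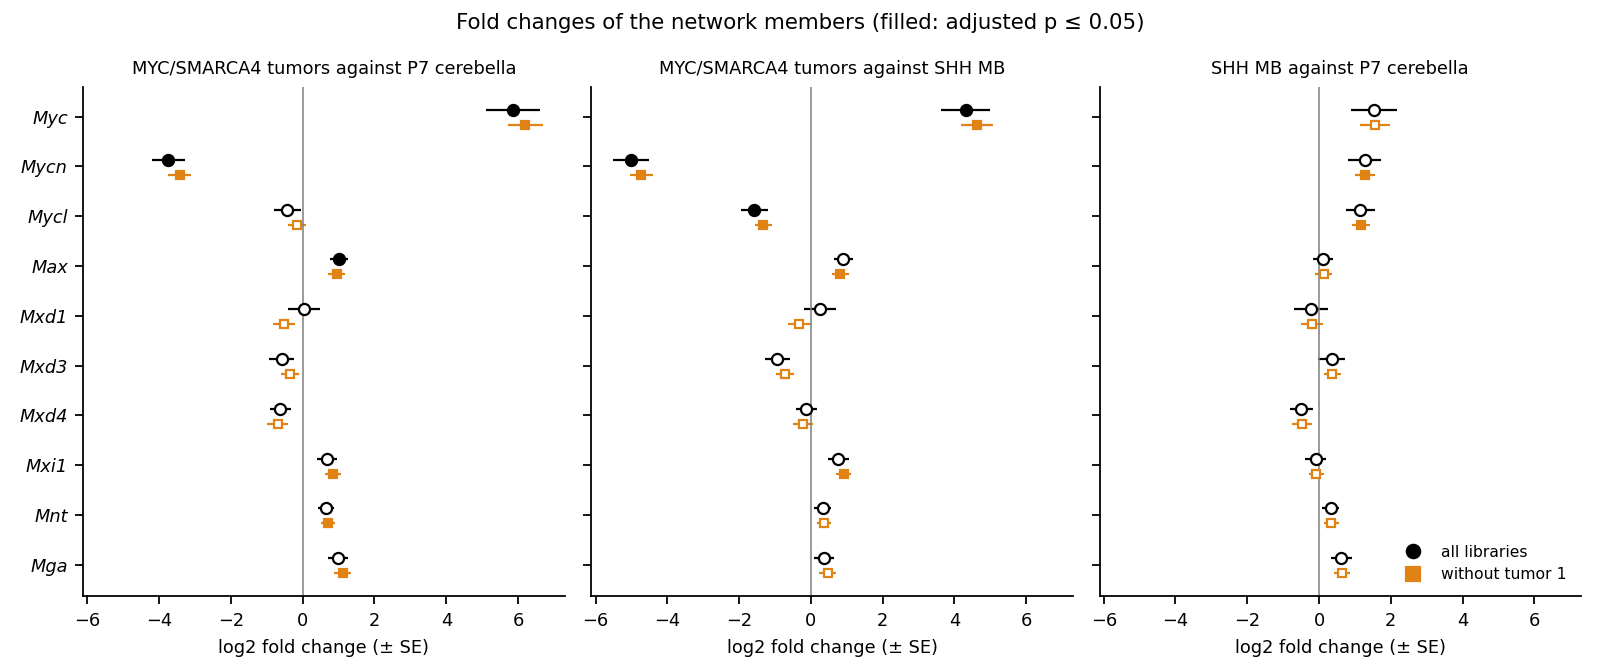
Log2 fold change with its SE for the 10 members in the 3 comparisons, as black circles for all libraries and orange squares without tumor 1, filled where the adjusted p was at most 0.05. Myc lies farthest to the right and Mycn farthest to the left in both comparisons of the tumors, and Mxd1 changes side when tumor 1 is left out.

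Myc, the gene supplied by the lentivirus and a driver of growth, was at 152, 368, 1587 and 1016 CPM in tumors 1 to 4. The P7 cerebella had 13.2, 14.3 and 12.98 CPM and the SHH MB had 38.4, 33.7 and 45.7 CPM. Every tumor was above every other library, and the tumors themselves spread by 10.4-fold from tumor 1 to tumor 3, while the P7 cerebella spread by 1.10-fold. Myc rose by a log2 fold change of 5.85 (SE 0.75, n = 4 and 3, adjusted p = 0.00194) against P7 cerebella, which is 57.8-fold. Against SHH MB it rose by 4.31 (SE 0.69, adjusted p = 0.00428), which is 19.9-fold. Both calls were made in each of 19 alternatives, with log2 fold changes from 5.11 to 6.20 and from 3.59 to 4.63. A rise of Myc was set by the design, since the construct codes for it. Between SHH MB and P7 cerebella, neither of which carried the lentivirus, the log2 fold change of Myc was 1.54 (SE 0.64, adjusted p = 0.506), and in the fit of only these groups 1.56 (SE 0.17), which passed.

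Mycn, the paralog expressed in granule cell precursors, was at 1.24, 9.0, 9.23 and 4.03 CPM in tumors 1 to 4, from counts of 5, 50, 66 and 33. The P7 cerebella had 94.5, 79.1 and 65.9 CPM and the SHH MB had 196, 178 and 203 CPM. The 3 groups did not overlap, with the tumors lowest, the P7 cerebella between and the SHH MB highest. Mycn fell in the tumors by 3.74 on the log2 scale (SE 0.47, n = 4 and 3, adjusted p = 0.00192) against P7 cerebella and by 5.01 (SE 0.49, adjusted p = 0.000147) against SHH MB. Without tumor 1, which had the lowest value, it fell by 3.43 and by 4.72. The 18 alternatives that gave a value called Mycn lower in both comparisons. Of the 5 granule cell precursor markers, 1 passed in each comparison of the tumors, with list medians of -0.75 and -1.19. Without tumor 1 there were 2 and 3 called lower, DESeq2 called 1 and 3 lower and limma 1 and 2. Of all genes, edgeR called 2.27% and 2.26% lower in these comparisons, and 5.0% and 3.86% without tumor 1. Atoh1, the gene known as Math1 in the labels and read here outside the rule for named genes, did not pass (adjusted p = 0.648 and 0.0521). It was at 0.496, 24.7, 31.5 and 3.42 CPM in tumors 1 to 4, beside 17.4 to 29.7 CPM in P7 cerebella and 97.8 to 139 CPM in SHH MB. Barhl1, a homeobox gene of this lineage that passed as lower in both, was at 11.2 to 17.8 CPM in the tumors, 109 to 133 CPM in P7 cerebella and 314 to 415 CPM in SHH MB. The part of cell composition in the level of Mycn was not tested.

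The promoter window of Mycn is shown because this gene fell in both comparisons of the tumors, with 300 bases from 250 before to 50 after the start site, on the minus strand at chr12:12941787-12942086 of GRCm38.p6 (RefSeq). Capitals mark matches, on either strand, to the E2F forms TTTGGCGC, present at 2 places, and TTTCGCGC, at 1 place that starts 179 bases before the start site (-179) and overlaps the TTTGGCGC match farther upstream.
Mycn: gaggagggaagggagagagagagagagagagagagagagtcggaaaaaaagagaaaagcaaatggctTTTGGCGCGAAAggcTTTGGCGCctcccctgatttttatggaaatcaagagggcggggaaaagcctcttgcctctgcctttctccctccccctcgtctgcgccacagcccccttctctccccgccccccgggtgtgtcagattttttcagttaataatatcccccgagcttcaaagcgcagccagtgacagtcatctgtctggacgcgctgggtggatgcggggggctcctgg
Of 32851 promoter windows of this length, 0.514% held TTTGGCGC and 0.323% held TTTCGCGC. These forms were chosen after the sequences were seen, so the shares are descriptions only. Neither the E-box CACGTG nor the GLI core GACCACCC was in the Mycn window, which says only that these letters were not found there.

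Mycl, a paralog with a more restricted pattern of expression, was at 15.4, 48.4, 64.9 and 35.5 CPM in tumors 1 to 4, at 56.8, 52.0 and 57.6 CPM in P7 cerebella and at 99.4, 132 and 137 CPM in SHH MB. The tumors overlapped the P7 cerebella, since tumor 3 was above them, and lay entirely below SHH MB. The fall against SHH MB was 1.58 on the log2 scale, a log2 fold change of -1.58 (SE 0.37, n = 4 and 3, adjusted p = 0.0321). This call held in 8 of 19 alternatives, with an adjusted p from 0.00226 to 0.151, and was lost when tumor 2, tumor 4 or any library of P7 cerebella or SHH MB was left out, so it is a call near the threshold. Its log2 fold change was -1.32 without tumor 1, which passed. Against P7 cerebella the log2 fold change was -0.43 (adjusted p = 0.462). Mycl was 1.15 (SE 0.40, adjusted p = 0.418) in SHH MB against P7 cerebella on the log2 scale, and the fit of only these groups gave 1.17 (SE 0.13), which passed.

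A stretch of the Mycl promoter is shown because Mycn and Mycl, of all members, were both below SHH MB in every tumor and passed the test. It covers chr4:122995852-122995911 on the plus strand of GRCm38.p6 (RefSeq), with capitals at the GLI core GACCACCC, which starts at -53 from the start site.
Mycl: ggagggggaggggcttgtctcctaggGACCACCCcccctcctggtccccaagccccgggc
The GLI core was searched on both strands and was in 0.807% of all promoter windows, that is for 0.932% of genes. Among the members with an entry it was found for 1 of 9. It was chosen after the sequences were seen, so these shares are descriptions only.

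The balance among the paralogs was compared per length, as normalized CPM per kb of exon sequence. Myc made up 93.4%, 90.9%, 97.1% and 97.6% of the sum of Myc, Mycn and Mycl in tumors 1 to 4. Its share was 12.4%, 15.1% and 14.5% in P7 cerebella and 17.6%, 15.0% and 18.0% in SHH MB. The share in the tumors did not overlap that in the other groups, and it was at least 90.9% in all 4 tumors, tumor 1 with its low proliferation signal included. A high share of Myc there was set by the design, since reads of the construct count as Myc. Those reads were divided by the exon length of the endogenous gene, not by that of the lentiviral transcript. Mycn made up 48.6% ± 4.62 (SD, n = 3) of the sum in P7 cerebella and 49.0% ± 3.44 (SD, n = 3) in SHH MB, and 0.583% ± 0.498 (SD, n = 4) in the tumors. The share of Mycl was 37.4% ± 3.87, 34.1% ± 4.36 and 4.67% ± 2.71 in these groups. P7 cerebella and SHH MB thus had like proportions of Mycn and Mycl at different sums, which were 35.4 ± 3.09 and 85.2 ± 6.99 CPM per kb, while the sums of tumors 1 to 4 were 59.7, 148, 599 and 381 CPM per kb. Tumor 1 had a paralog sum below that of each SHH MB library.

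**Figure D3:**
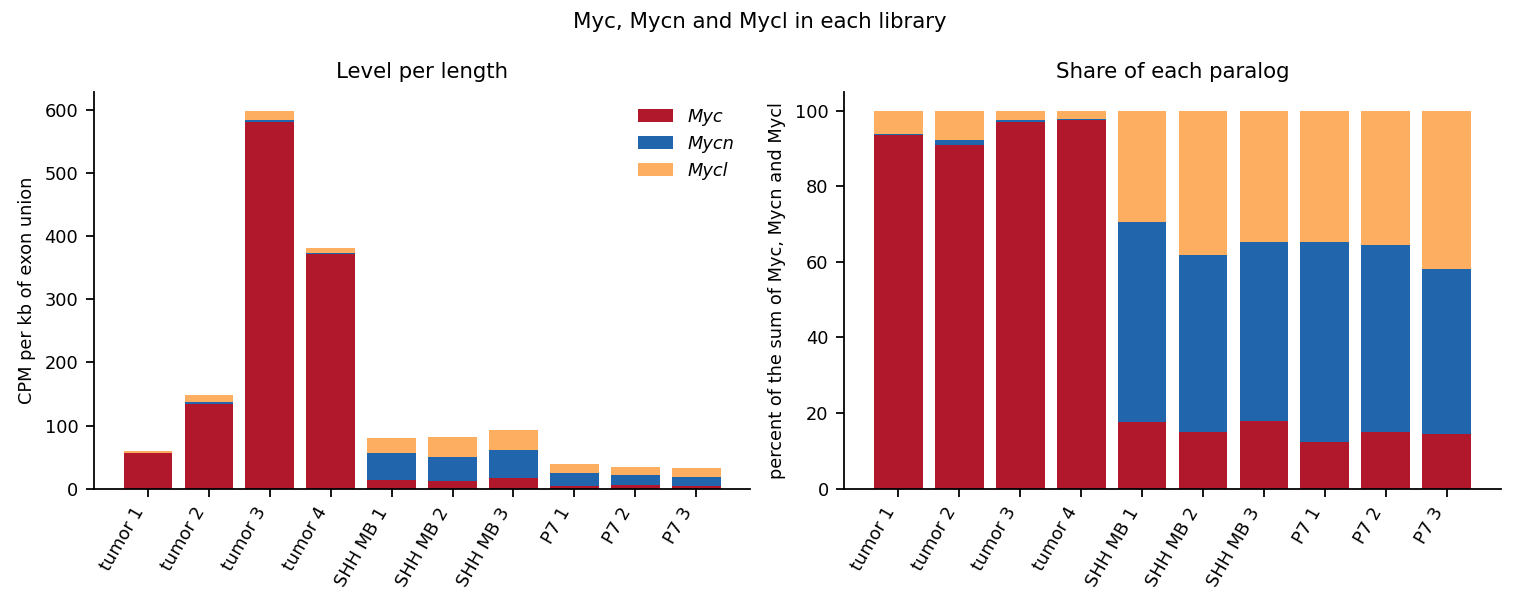
Stacked bars of Myc, Mycn and Mycl in each library, on the left as CPM per kb of exon union and on the right as percent of their sum. The Myc share lies between 90.9% and 97.6% in the tumors and between 12.4% and 18.0% in the other libraries.

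Max, the shared partner without which the other proteins bind DNA poorly, was at 112, 102, 67.6 and 108 CPM in tumors 1 to 4. It was at 51.8, 52.4 and 40.66 CPM in P7 cerebella and at 46.7, 48.3 and 61.2 CPM in SHH MB. All 4 tumors were above all 6 other libraries, tumor 3 by the smallest margin. Max rose against P7 cerebella by a log2 fold change of 1.01 (SE 0.26, n = 4 and 3, adjusted p = 0.0403). That call was made in 7 of 19 alternatives, with an adjusted p from 0.00425 to 0.208, and it was lost without tumor 2, tumor 4 or any 1 of the 6 other libraries. Against SHH MB, Max was at 0.90 on the log2 scale (SE 0.26, adjusted p = 0.0689), and without tumor 1 at 0.82, which passed. Max passed there in 4 of 19 alternatives, the others being without tumor 3, with DESeq2 and with at least 10 counts in every library. Between SHH MB and P7 cerebella its log2 fold change was 0.11 (adjusted p = 0.953). The difference of Max in the tumors was much smaller than that of Myc in log2 terms.

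The ratio of paralogs to Max therefore differed among the libraries. The sum of Myc, Mycn and Mycl per kb was 2.30, 6.23, 38.2 and 15.2 times the level of Max per kb in tumors 1 to 4. The same ratio was 3.23, 2.86 and 3.47 in P7 cerebella and 7.40, 7.34 and 6.56 in SHH MB. Tumors 3 and 4 were above every other library in this ratio, tumor 2 was just below SHH MB, and tumor 1 was the lowest of the 10 libraries. In the tumors the paralog sum includes reads of the construct, so a high ratio there was in part set by the design. These are ratios of RNA levels, and protein was not measured here.

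Of the MXD genes, Mxd1, an antagonist induced in differentiating cells, was at 62.5, 29.3, 9.79 and 24.6 CPM in tumors 1 to 4. The P7 cerebella had 28.6 to 32.6 CPM and the SHH MB 26.1 to 26.7 CPM. Tumor 1 was above and tumor 3 below all the other libraries, so the tumors overlapped both groups. The log2 fold change was 0.03 (SE 0.44, adjusted p = 0.970) against P7 cerebella and 0.25 (SE 0.44, adjusted p = 0.796) against SHH MB, and without tumor 1 it was -0.52 and -0.32. The direction for Mxd1 also turned under other alternatives, so none is given. Over the tumors, Mxd1 was ordered as the mature granule neuron list was, from tumor 1 through tumors 2 and 4 to tumor 3. The Purkinje cell, myelinating oligodendrocyte and endothelium lists had the same order.

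Mxd3, the antagonist known from proliferating granule cell precursors, was at 4.71, 11.3, 17.4 and 9.27 CPM in tumors 1 to 4. It was at 15.3, 17.2 and 15.8 CPM in P7 cerebella and at 20.2, 22.5 and 19.03 CPM in SHH MB. Every tumor was below SHH MB, whereas tumor 3 lay above each P7 cerebellum. The log2 fold change was -0.59 (SE 0.35, adjusted p = 0.303) against P7 cerebella and -0.94 (SE 0.35, adjusted p = 0.159) against SHH MB. Without tumor 3 these values were -1.05 and -1.38, which passed, and without tumor 1 they were -0.35 and -0.72, which did not. Mxd3 was lowest in tumor 1, the tumor with the lowest proliferation signal, but tumor 4, with the highest proliferation signal of the tumors, had less of it than tumors 2 and 3, and the part of proliferation in its level was not tested. Prelid1, a gene on the opposite strand, shares 31.7% of the exon sequence of Mxd3, and the strand setting of the counting is not stated, so how reads in the shared bases were assigned is not known.

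**Figure D4:**
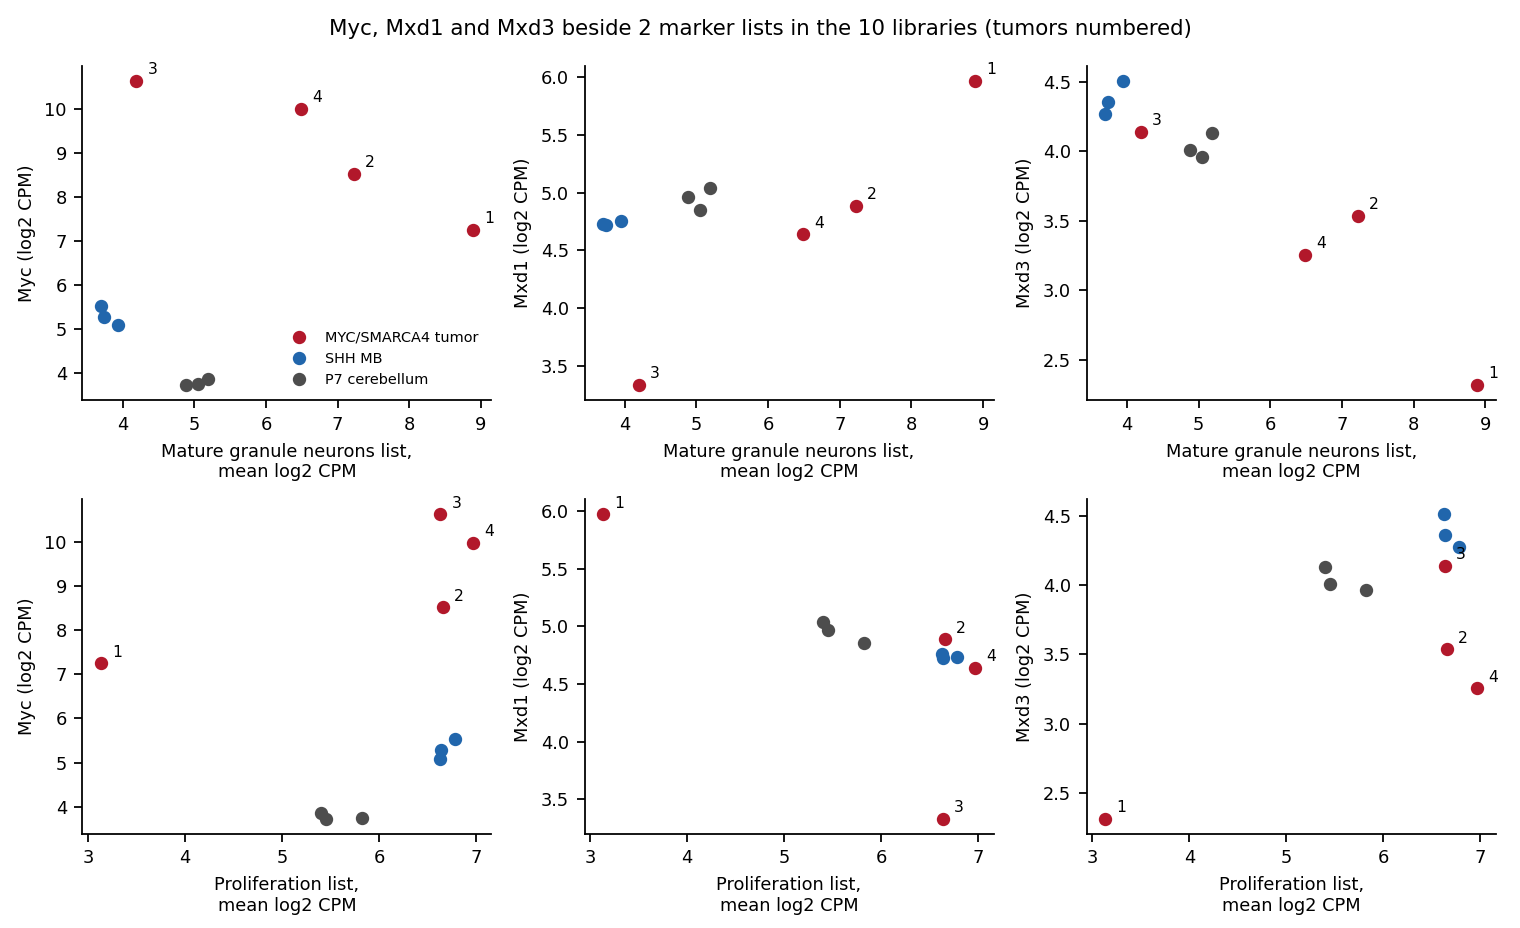
Log2 CPM of Myc, Mxd1 and Mxd3 in the 10 libraries against the mean log2 CPM of the mature granule neuron list (top) and of the proliferation list (bottom), with tumors in red and numbered, SHH MB in blue and P7 cerebella in gray. Tumor 1 lies at the highest mature granule neuron mean, 8.89, and the lowest proliferation mean, 3.13, where Mxd1 is highest and Mxd3 lowest.

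Mxd4, an antagonist of cells leaving the cycle, ranged from 13.4 CPM in tumor 3 to 30.2 CPM in tumor 4. It ranged from 34.4 to 46.4 CPM in P7 cerebella and from 24.6 to 30.3 CPM in SHH MB. The tumors were below all P7 cerebella and overlapped SHH MB. Mxd4 had a log2 fold change of -0.63 (SE 0.29, adjusted p = 0.203) against P7 cerebella and -0.13 (adjusted p = 0.844) against SHH MB. Mxd4 passed against P7 cerebella in 1 of 19 alternatives, that with at least 10 counts in every library, at -0.94.

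Mxi1, also called Mxd2, was at 104, 190.4, 201 and 134 CPM in tumors 1 to 4. It was at 102, 108 and 85.2 CPM in P7 cerebella and at 85.3, 90.7 and 101 CPM in SHH MB. All tumors were above SHH MB, and tumor 1 lay within the range of P7 cerebella. Mxi1 had a log2 fold change of 0.68 (SE 0.28, adjusted p = 0.156) against P7 cerebella and 0.77 (SE 0.28, adjusted p = 0.146) against SHH MB, and without tumor 1 it was 0.84 and 0.91, both of which passed. Of the 19 alternatives, only the one without tumor 1 called Mxi1 in either comparison.

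Mnt, a broadly expressed antagonist of MYC, had the narrowest range of the members in the tumors, from 81.1 CPM in tumor 1 to 95.2 CPM in tumor 2. It ranged from 53.0 to 65.2 CPM in P7 cerebella and from 60.6 to 79.1 CPM in SHH MB, and every tumor was above all of these 6 libraries. The log2 fold change was 0.65 (SE 0.23, adjusted p = 0.104) against P7 cerebella and 0.33 (SE 0.23, adjusted p = 0.460) against SHH MB. Against P7 cerebella it was 0.71 without tumor 1 and passed, as it did with DESeq2, at 0.70.

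Mga, the MAX partner that also carries a T-box domain, was at 313, 445, 378 and 530.0 CPM in tumors 1 to 4. It was at 235, 212 and 184 CPM in P7 cerebella and at 290, 311 and 370 CPM in SHH MB. The tumors were above all P7 cerebella and overlapped SHH MB. The log2 fold change against P7 cerebella was 0.99 (SE 0.28, adjusted p = 0.0568), just outside the threshold, and 1.11 without tumor 1, which passed. It passed in 4 of 19 alternatives, with an adjusted p from 0.00255 to 0.291. Against SHH MB it was 0.36 (SE 0.28, adjusted p = 0.505). Between SHH MB and P7 cerebella it was 0.62 (SE 0.30, adjusted p = 0.582), and in the fit of only these groups 0.64 (SE 0.13), which passed.

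The order of the members per length differed among the groups. In the tumors Myc led at 286 ± 238 CPM per kb (SD, n = 4), followed by Mga at 27.1 ± 6.06, Max at 22.6 ± 4.70, Mxi1 at 21.7 ± 6.37 and Mnt at 17.1 ± 1.27 CPM per kb. Mycl at 9.75, Mxd1 at 4.31, Mxd3 at 3.86, Mxd4 at 2.90 and Mycn at 1.27 CPM per kb came after these, and only Myc lay apart from its neighbour in this order, while the ranges of all later neighbours overlapped. In P7 cerebella Mycn led at 17.3 ± 3.10 CPM per kb (SD, n = 3), overlapping Mga at 13.7 and Mxi1 at 13.6 but not Mycl at 13.2, and Myc was eighth in place, at 4.94 CPM per kb, with Mxd4 and Mxd1 after it. Mycl and Max, Mnt and Mxd3, and Mxd3 and Myc lay apart there. In SHH MB Mycn led at 41.7 ± 2.76 CPM per kb, apart from Mycl at 29.1, which overlapped Mga at 21.1. Myc followed in SHH MB at 14.4 CPM per kb and overlapped Mnt at 13.7, and Mnt overlapped Mxi1 at 12.7 and Mxi1 overlapped Max at 12.1. Mxd3 at 7.46, Mxd1 at 3.60 and Mxd4 at 3.17 CPM per kb came last in SHH MB, each apart from its neighbours. By these means Mycn held the highest place in both groups without the lentivirus and the lowest place in the tumors, although in tumor 3 Mycn, at 2.00 CPM per kb, was above Mxd1 at 1.34 and Mxd4 at 1.55. The first place of Myc in the tumors rests on counts that include reads of the construct. The order depended on the length used. With the longest coding transcript, a length chosen after the data were seen, Mycn kept these places and Myc the first place in the tumors, but Myc came last in P7 cerebella, at 5.68 CPM per kb, and sixth in SHH MB.

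The antagonists and Mga together moved less than the paralogs, whose sum in the tumors includes reads of the construct. The sum of Mxd1, Mxd3, Mxd4, Mxi1, Mnt and Mga per length was 63.5, 84.4, 79.1 and 81.0 CPM per kb in tumors 1 to 4. It was 52.9, 57.0 and 48.2 CPM per kb in P7 cerebella and 59.4, 58.8 and 66.8 CPM per kb in SHH MB. Tumor 1 lay within the range of SHH MB, and the other tumors lay above both groups. The paralog sum was 0.939, 1.76, 7.57 and 4.71 times this sum in tumors 1 to 4, 0.674 ± 0.0623 times (SD, n = 3) in P7 cerebella and 1.38 ± 0.0280 times in SHH MB.

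The members were not ordered alike over the tumors. Mycn, Mycl, Mxd3 and Mxi1 were highest in tumor 3, then tumors 2, 4 and 1, and Myc was highest in tumor 3, then tumors 4, 2 and 1. Max and Mxd1 were highest in tumor 1 and lowest in tumor 3, and Mxd4 was also lowest in tumor 3. Mga was highest in tumor 4 and then in tumors 2, 3 and 1. The log2 range over the tumors was 3.38 for Myc, 2.65 for Mycn and 2.64 for Mxd1, and 0.23 for Mnt, with that of the other members between 0.72 and 2.06. With 4 tumors such orders are descriptions.

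The partners of the network were read from lists, each described by its counts and its median log2 fold change beside the median of all genes tested, which was -0.05 against P7 cerebella, 0.01 against SHH MB and -0.09 between SHH MB and P7 cerebella. The list called coactivators holds 15 genes for coactivators and other partners of MYC, such as TRRAP, the RUVBL ATPases and WDR5. With edgeR 0 of them passed in any of the 3 comparisons, and their medians were 0.59, 0.24 and 0.32. At an unadjusted p under 0.05 there were 6, 2 and 2 of them, DESeq2 called 6, 1 and 0, and limma called 0. Without tumor 1, 9 of the 15 were called higher against P7 cerebella and 4 against SHH MB, beside 11.1% and 5.91% of all genes. With all libraries, 3.99% and 2.43% of all genes were called higher in these comparisons by edgeR. Of 14 genes of SIN3 corepressor complexes, through which the MXD proteins act, Sap30 at 1.23 (SE 0.27) and Rbbp7 at 1.13 (SE 0.30) rose against P7 cerebella. DESeq2 called 2 genes of the list higher there and limma 1, so at least 1 of these calls was lost with limma. The medians of the 14 genes were 0.21, 0.01 and 0.38. None of them passed against SHH MB or between SHH MB and P7 cerebella with edgeR on all libraries, DESeq2 or limma, with 2 at an unadjusted p under 0.05 in each. Of 11 genes of the Polycomb complex that holds MGA, L3mbtl2, which codes for a subunit of it that binds histones, rose by 1.73 (SE 0.35) against P7 cerebella and by 1.68 (SE 0.35) against SHH MB, with list medians of 0.48, 0.20 and 0.43. Without tumor 1, 5 and 2 genes of that complex were called higher. Of 17 genes for enzymes and other proteins linked to the stability of MYC, Usp36, a nucleolar deubiquitinase of MYC, rose by 1.30 (SE 0.25) and by 1.03 (SE 0.25). The list medians were 0.62, 0.30 and 0.41. Limma called 0 genes of this list against SHH MB, so the call of Usp36 there was lost with that tool. Without tumor 1 there were 8 and 2 called higher, and 3 between SHH MB and P7 cerebella, where 2.30% of all genes were then called higher. The 3 genes of the related MLX arm, Mlx, Mlxip and Mlxipl, gave 0 calls with edgeR on all libraries, DESeq2 or limma and 1, 0 and 0 genes at an unadjusted p under 0.05, with medians of 0.21, 0.30 and -0.06, and without tumor 1 there was 1 called higher, against P7 cerebella. Between SHH MB and P7 cerebella the MGA complex and stability lists gave 0 calls with each of the 3 tools on all libraries, and 1 and 2 genes at an unadjusted p under 0.05. The fit of only these groups called 8 of 15 coactivators, 6 of 14 SIN3 genes, 6 of 11 genes of the MGA complex and 9 of 17 of the stability list higher, beside 13.4% of all genes, and 0 of them lower. The same fit called 8 of 8 Purkinje cell and 8 of 8 myelinating oligodendrocyte markers lower, as given with the other cell types below.

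Of 36 genes that MYC is known to induce, 22 were called higher and 0 lower against P7 cerebella with edgeR, 30 higher with DESeq2 and 14 higher with limma, with a median log2 fold change of 1.58 beside -0.05 for all genes. The highest were Shmt1, an enzyme of folate metabolism, at 2.67 (SE 0.50, adjusted p = 0.0126), and Gnl3, which codes for nucleostemin, at 2.67 (SE 0.38, adjusted p = 0.00319). Against SHH MB 5 of the 36 were called higher and 0 lower with edgeR, 12 higher with DESeq2 and 1 higher with limma, with a median of 0.91 beside 0.01 for all genes, led by Srm, the spermidine synthase gene, at 2.26 (SE 0.54, adjusted p = 0.0340) and Hspd1, a mitochondrial chaperonin gene, at 1.6 (SE 0.40, adjusted p = 0.0400). In SHH MB against P7 cerebella 0 of the 36 passed with edgeR, at a median of 0.68, with 12 at an unadjusted p under 0.05, 2 called by DESeq2 and 0 by limma, and 27 were higher and 2 lower in the fit of only these groups. The list summed to 2325, 7108, 6521 and 8150.0 CPM in tumors 1 to 4, to 2285 to 2918 CPM in P7 cerebella and to 3472 to 3618 CPM in SHH MB. Tumor 1 was within the P7 range for this sum and below every SHH MB library. The place beside P7 cerebella depended on Ccnd2, the most abundant gene of the list over the 10 libraries. Ccnd2 was at 27.8 CPM in tumor 1 and 680 to 1069 CPM in P7 cerebella. Without it the sum was 2297 CPM in tumor 1 and 1558 to 1850.0 CPM in P7 cerebella. Without tumor 1, 32 genes were called higher and 0 lower against P7 cerebella, 27 higher and 1 lower against SHH MB, and 11 higher between SHH MB and P7 cerebella. Of all genes, 11.1%, 5.91% and 2.30% were then called higher in these comparisons, and 3.99%, 2.43% and 0.177% with all libraries. The fit of only SHH MB and P7 cerebella called 13.4% of all genes higher and 10.3% lower. Proliferation was read beside these genes, and of the 21 genes of the proliferation list 0 passed in any comparison with edgeR on all libraries, DESeq2 or limma, with 3, 0 and 3 at an unadjusted p under 0.05 and medians of 0.92, -0.27 and 1.13. Without tumor 1 the median against SHH MB was 0.075, so no direction is given there, and there were 20 called higher against P7 cerebella, 0 against SHH MB and 15 between SHH MB and P7 cerebella, and the fit of only these last 2 groups called all 21 higher. The part of proliferation in the level of the induced genes was not tested. Of the 38 results for the strongest genes of the lists, not all of them printed here, 24 lost their call in at least 1 alternative.

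Of 14 genes that MYC is known to repress, among them the inhibitors of cyclin-dependent kinases Cdkn1a, Cdkn1b, Cdkn2b and Cdkn2c, edgeR called 0 in each comparison, with medians of 0.28, -0.01 and 0.03. At an unadjusted p under 0.05 there were 1, 3 and 1 of them, DESeq2 called 1, 1 and 0, and limma called 0. Without tumor 1, 1 was higher and 1 lower in each comparison of the tumors, and the fit of only SHH MB and P7 cerebella called 3 higher and 1 lower. Without tumor 1, 11.1% of all genes were higher and 5.0% lower against P7 cerebella, and 5.91% and 3.86% against SHH MB. In the fit of only SHH MB and P7 cerebella these shares were 13.4% and 10.3%. The list summed to 708, 847, 286 and 740 CPM in tumors 1 to 4, to 490.5 to 529 CPM in P7 cerebella and to 537 to 551 CPM in SHH MB. Tumor 3 was the lowest library for this sum, and the other 3 tumors were above all P7 cerebella and SHH MB. Both held without Ndrg2, the most abundant gene of the list over the 10 libraries. The part of cell composition in this sum was not tested.

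**Figure D5:**
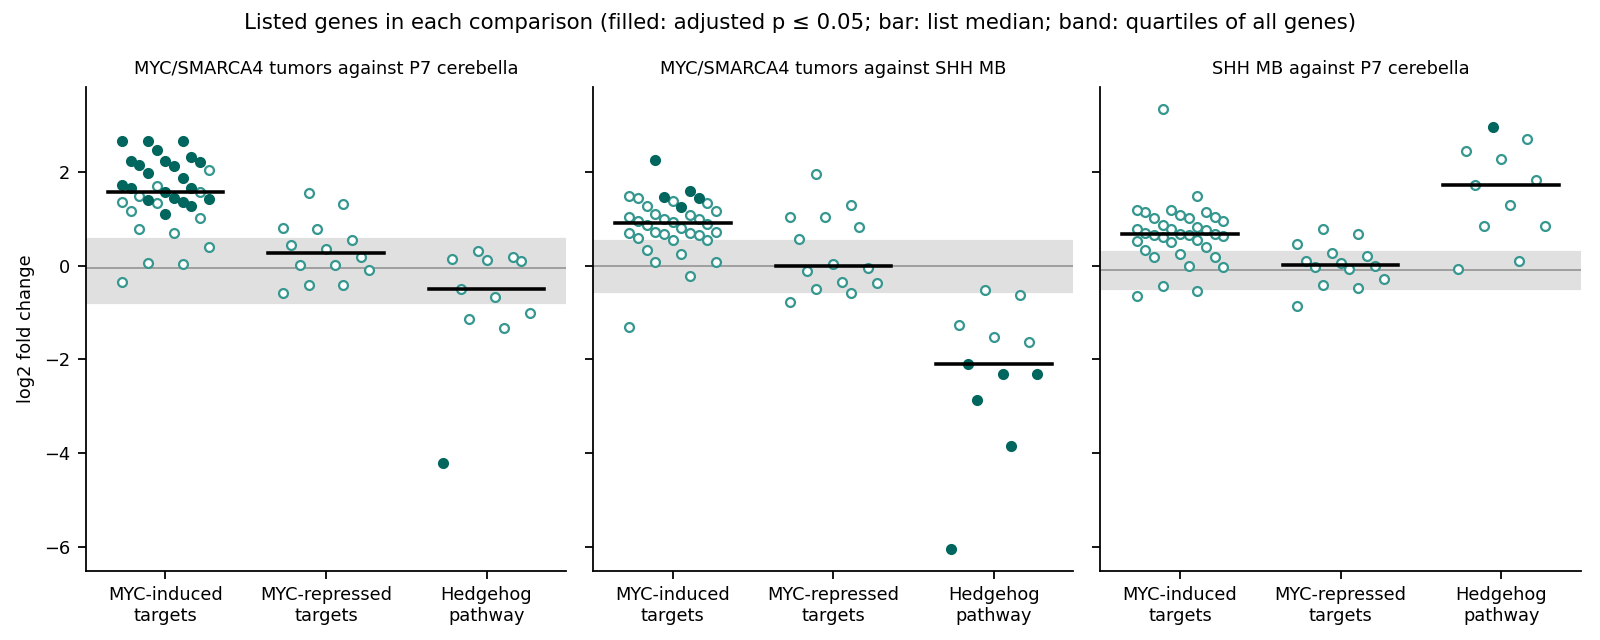
Log2 fold change of each gene of the lists of MYC-induced targets, MYC-repressed targets and the Hedgehog pathway in the 3 comparisons, filled where the adjusted p was at most 0.05, with a bar at the list median and a gray band between the quartiles of all genes tested. The induced list has its median at 1.58 and 0.91 in the comparisons of the tumors, and the Hedgehog list at -2.11 against SHH MB.

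The Hedgehog pathway, which acts upstream of Mycn in granule cell precursors, was read beside it. Of its 11 genes, 6 fell against SHH MB and 0 rose, with a median of -2.11, led by Sfrp1, a secreted Wnt modulator, at -6.05 (SE 0.43). Against P7 cerebella 1 gene, Sfrp1, fell, at -4.21 (SE 0.40), with a list median of -0.50. Between SHH MB and P7 cerebella Ccnd1, the cyclin D1 gene, rose by 2.97 (SE 0.52), with a list median of 1.74. In that comparison 7 of the 11 were called higher without tumor 1, 5 with DESeq2, 2 with limma and 9 in the fit of only these groups, so the count depended on the fit. Without tumor 1, 8 were called lower against SHH MB, and 1 higher and 2 lower against P7 cerebella. Of all genes, 2.26% were lower against SHH MB with all libraries and 3.86% without tumor 1. Against P7 cerebella 2.27% were lower with all libraries, and 11.1% higher and 5.0% lower without tumor 1. Between SHH MB and P7 cerebella 0.177% were higher, with 2.30% without tumor 1 and 13.4% in the fit of only these groups. Gli1, a transcription factor gene that reads out the pathway, was at 8.43, 47.0, 58.2 and 112 CPM in tumors 1 to 4, at 49.7 to 56.8 CPM in P7 cerebella and at 155 to 191 CPM in SHH MB. Gli1 was named after its values were seen.

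Smarca4, the chromatin remodeler gene deleted in a part of the donor cells, was at 208, 244, 136 and 238 CPM in tumors 1 to 4. The P7 cerebella had 221 to 282 CPM and the SHH MB 491 to 590 CPM. The tumors overlapped the P7 cerebella, and the log2 fold change there was -0.30 (SE 0.28, adjusted p = 0.495). Against SHH MB Smarca4 fell by 1.39 (SE 0.28, adjusted p = 0.0157), a call lost without any 1 of the SHH MB libraries, with an adjusted p from 9.08e-05 to 0.122 over 19 alternatives. Counts per gene do not separate transcripts of the recombined allele from those of intact alleles, and a part of the cells of the P7 cerebella carries the deletion too. The paper reports that staining found no SMARCA4 protein in the tumor cells, while blood vessels were positive. It also found the recombined allele in tumor biopsies by PCR.

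Other cell types differed between the groups. Of all genes, edgeR called 3.99% higher and 2.27% lower against P7 cerebella, and 2.43% and 2.26% against SHH MB. Without tumor 1 these shares were 11.1% and 5.0%, and 5.91% and 3.86%. Of the 8 mature granule neuron markers, 3 were higher against P7 cerebella and 6 against SHH MB, among them Cbln3 at 4.28 and 6.10 and Gabra6, a GABA receptor gene, at 3.41 and 5.84. Without tumor 1 these were 2.94 and 4.74 for Cbln3 and 2.55 and 4.96 for Gabra6. Purkinje cell markers gave 0 and 3 of 8 higher with edgeR and 2 and 4 with DESeq2, and myelinating oligodendrocyte markers 0 and 1 of 8 with edgeR and 1 and 3 with DESeq2. With limma these were 0 and 0 for Purkinje cells and 0 and 1 for oligodendrocytes, and at an unadjusted p under 0.05 they were 3 and 6, and 1 and 5. Without tumor 1 the median against P7 cerebella went from 0.94 to -0.71 for Purkinje cells, with 1 called lower, and from 0.26 to -0.77 for oligodendrocytes, with 2 called lower, so no direction against P7 cerebella is given for either. Against SHH MB the medians went from 2.93 to 0.90 and from 2.12 to 0.67. Choroid plexus markers summed to 20.1, 11, 26.9 and 12.6 CPM in tumors 1 to 4 and to 561 to 1158 CPM in P7 cerebella, and 3 of 6 fell in each comparison of the tumors, led by Ttr, the transthyretin gene, at -8.91 and -8.94. Of the immature neuron markers, Dcx at -4.15 and -3.98 and Tubb3 at -1.56 and -1.09 fell, 2 of 5 in each comparison. Without tumor 1 there were 4 and 3 called lower, and the list medians went from -1.56 to -2.16 and from -0.24 to -1.13. Of the 5 granule cell precursor markers, Barhl1 fell in both, at -3.16 and -4.78, and rose by 1.62 in SHH MB against P7 cerebella. Astrocyte and Bergmann glia markers gave 3 of 7 lower against P7 cerebella, with 1 of 7 higher and 1 lower against SHH MB. Of the 5 erythrocyte markers, Hba-a2 fell in both comparisons, at -4.02 and -4.88, while the other 4 did not pass, with list medians of 0.11 and -0.45. With all libraries, microglia, endothelium and fibroblast lists gave 0 calls with edgeR and with limma in each of the 3 comparisons. DESeq2 called 2 microglia genes higher against SHH MB and 1 endothelial gene higher in each comparison of the tumors. At an unadjusted p under 0.05 there were at most 2 genes of each list. The fit of only SHH MB and P7 cerebella called 1 endothelial and 1 fibroblast gene lower. Without tumor 1 the endothelium list gave 3 of 6 lower in both comparisons of the tumors. Between SHH MB and P7 cerebella, the fit of only these groups called 8 of 8 Purkinje cell and 8 of 8 myelinating oligodendrocyte markers lower. It also called 6 of 8 mature granule neuron, 5 of 7 astrocyte and Bergmann glia and 4 of 5 immature neuron markers lower. The medians of these lists were from -1.72 to -1.15, and 10.3% of all genes were called lower in that fit. On all libraries, edgeR, DESeq2 and limma called 0 of these markers there. What these cell types contribute to the levels of the members was not tested.

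The genes most like Myc, Mycn and Mxd3 over the 10 libraries were taken by Pearson correlation of log2 CPM among 13235 genes, as a description that includes the differences between the groups. Ebna1bp2 with r = 0.985, Hspa9 with r = 0.983, Eif4b with r = 0.980, Rcc1l with r = 0.977 and Nsun2 with r = 0.977 were most like Myc. Cilk1 with r = 0.992, Mdga1 with r = 0.990, Sox5 with r = 0.989, Sdk1 with r = 0.986 and Mamdc2 with r = 0.986 were most like Mycn. For Mxd3 these were Gm28809 with r = 0.984, Gm37053 with r = 0.970, Igdcc3 with r = 0.959, Inava with r = 0.958 and Adamts6 with r = 0.956. The lowest of these correlations without tumor 1 was 0.981 for the genes most like Myc, 0.983 for those most like Mycn and 0.859 for those most like Mxd3.

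The E-box CACGTG, to which dimers with MAX bind, was searched on both strands of the promoter windows, and the stretches of the members that hold it are shown because MAX dimers bind this motif. Of the 10 members, 9 have an entry in the RefSeq promoter set of GRCm38.p6, and Myc has none. The motifs were chosen after these sequences were seen. Capitals mark CACGTG, which starts at -3 from the start site in Max (chr12:76962219-76962278, minus strand), at -123 in Mnt (chr11:74830774-74830833, plus strand) and at -219 in Mxd4 (chr5:34187897-34187956, minus strand).
Max: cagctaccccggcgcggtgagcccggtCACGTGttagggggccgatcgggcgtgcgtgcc
Mnt: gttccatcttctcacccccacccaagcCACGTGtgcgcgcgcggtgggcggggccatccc
Mxd4: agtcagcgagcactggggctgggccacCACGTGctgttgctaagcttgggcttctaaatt
The E-box was in the windows of 3 of 9 members, and over all promoters in 7.15% of 32851 windows, that is for 8.09% of 27025 genes. It was found for 10 of 31 genes of the MYC-induced list with an entry (32.3%) and for 3 of 11 genes of the MYC-repressed list (27.3%). Of the members that hold it, Max passed the test as higher in the tumors against P7 cerebella, and Mnt and Mxd4 did not. A match describes letters in a window and not binding.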

How the data were processed

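RNA was extracted from FFPE tissue, and ribosomal RNA was depleted. The authors trimmed reads with Trimmomatic 0.38.1, aligned them to GRCm39 with STAR 2.7.8a and counted them per gene with featureCounts 2.0.1. The deposited counts are raw whole numbers per gene, and the authors also deposited log2 values from the variance-stabilizing transformation (VST) of DESeq2. With edgeR 4.0.16 (R 4.3.3), the quasi-likelihood test was run on these counts, with all 10 libraries in 1 fit, TMM factors and filterByExpr by group, a common dispersion of 0.178 and 5.87 prior degrees of freedom. P-values of 29952 genes were adjusted by the Benjamini-Hochberg method, and a gene was called at an adjusted p of at most 0.05. The SE is the fold change divided by the root of the F statistic. Log2 CPM used a prior count of 2, and lengths were exon unions of GENCODE models. Libraries were grouped by their labels. The members and the 20 lists (8 of pathways and 12 of markers, 213 genes) were chosen with earlier results of these data known. Named genes were the members, Smarca4, up to 2 rising and 2 falling genes per list and comparison, the most abundant marker of each list and the 5 genes most like Myc, Mycn and Mxd3, and outside this rule Atoh1, Gli1, Ccnd2 and Ndrg2. Alternatives were DESeq2 1.42.0, limma 3.58.1 on the VST values, RLE factors, other filters on low counts, fits of 2 groups alone, a block on replicate number, robust estimation, totals that leave out mitochondrial and rRNA-like genes, a prior count of 0.5, the thresholds of the study and each library left out in turn.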

Additional observations from a re-analysis of the deposited data

Results flagged for a closer look

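In 6 of 31 groups of 4 tumors, the lowest tumor lay farther from the nearest other tumor, as a share of the whole range, than Dixon's limit for 4 samples allows. Chance gives this in about 1 in 20 groups, but these groups are values of the same 4 tumors and are not independent. The share was 0.83 for Max, only just above the limit, and 0.867 for Mxd4, with tumor 3 lowest in both, and 0.895 for Mnt, with tumor 1 lowest. It was 0.934 for the mean of the MYC-repressed targets and 0.939 for that of the fibroblast and meninges markers, with tumor 3 lowest, and 0.913 for the mean of the proliferation list, with tumor 1 lowest.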

How the results depend on the processing

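Of the fold changes of members and Smarca4 under the alternatives, 558 kept their direction and their side of the threshold, 26 came to pass it, 28 no longer passed it and 12 turned in direction. Of those of the strongest genes of the lists, 532 kept both and 182 no longer passed. The cause was not tested. Against P7 cerebella, the number of members called higher (2) was 4 with DESeq2, 1 with limma on the VST values, without a filter, with only the 2 groups compared and at the thresholds of the study, and from 1 to 5 with a library left out. The number called lower (1) was from 1 to 2 with a library left out. Against SHH MB, the number called higher (1) was 2 with DESeq2 and with at least 10 counts in every library, and from 1 to 3 with a library left out. The number called lower (2) was 1 with at least 10 counts (where Mycn, at 5 counts in tumor 1, gave no value), with only the 2 groups compared, without mitochondrial and rRNA-like genes and at the thresholds of the study, and from 1 to 3 with a library left out. Between SHH MB and P7 cerebella, the numbers called higher and lower (0 and 0) were 4 and 1 with only the 2 groups compared, and the number called higher was from 0 to 2 with a library left out.

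The log2 fold change of Mxd1 against P7 cerebella was -0.17 with limma on the VST values, -0.33 with at least 10 counts, -0.16 with only the 2 groups compared, -0.14 without mitochondrial and rRNA-like genes, and from -0.52 to 0.12 with a library left out. Against SHH MB it was -0.034 with at least 10 counts and from -0.32 to 0.36 with a library left out. That of Mxi1 between SHH MB and P7 cerebella was from -0.18 to 0.0098 with a library left out.

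With at least 10 counts in every library, the median of SIN3 corepressors against P7 cerebella was -0.051, and between SHH MB and P7 cerebella the medians were 0.25 for coactivators, 0.26 for MYC stability, -0.056 for repressed targets and 1.44 for the Hedgehog pathway. With a library left out, these were from 0.30 to 0.41 for coactivators, from 0.0076 to 0.13 for repressed targets and from 1.70 to 1.83 for the Hedgehog pathway. Against SHH MB the medians were then from -0.071 to 0.25 for the MGA complex and from 0.025 to 0.38 for MYC stability. They were from 0.093 to 0.42 for the MLX arm and from -0.099 to 0.083 for SIN3 corepressors. Against P7 cerebella that of the MLX arm was from -0.11 to 0.52. No direction is given for medians whose range held both signs.

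With the replicate number as a block, 1 member was called higher and 1 lower against P7 cerebella, 1 higher and 1 lower against SHH MB and 0 between SHH MB and P7 cerebella, Mxd1 was -0.081 against P7 cerebella, and 370, 631 and 19 genes were called, of which 346, 570 and 16 were also called without the block. Over 9 pairs of libraries with the same number in different groups, the correlation of what remained after the group means ranged from -0.274 to 0.162 and was above 0.1 in 1, so the numbers do not pair the samples.

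The median of all genes against P7 cerebella shifted by -0.205 with DESeq2, -0.18 with limma, -0.20 without a filter and 0.12 with at least 10 counts, and against SHH MB by -0.105, -0.16 and -0.12 for DESeq2, limma and no filter. RLE factors shifted it by 0.025 and -0.012. The Myc share of the paralog sum with the longest coding transcript as length, chosen after seeing the data, was 93.8%, 91.3%, 97.2% and 97.7% in tumors 1 to 4. With that length the paralog sum was 1.68, 4.54, 27.9 and 11.1 times Max in tumors 1 to 4, 2.22 to 2.66 times in P7 cerebella and 5.09 to 5.82 times in SHH MB.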
